A study of Mus musculus with 224 samples.

Results

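Complement and coagulation factors are 40 genes whose proteins circulate in blood plasma as the proteases, cofactors, pore-forming proteins, clot proteins and inhibitors of 2 linked cascades. The members were given as a list of gene symbols and found by Ensembl identifier, and they are 40 of 17494 genes with a row in any of the 3 tissue tables. By role, 7 belong to the classical pathway of complement, 4 to the lectin pathway, 3 to the alternative pathway, 6 to the terminal pathway and 2 are complement inhibitors. On the clotting side, 4 act in the extrinsic and common pathway, 5 in the intrinsic or contact pathway, 4 form or stabilise fibrin and 5 are anticoagulants or belong to the plasmin system. Liver had a row for all 40, soleus muscle for 38 (not Cfb and F11) and visceral adipose tissue for 38 (not F11 and F13b).

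RNA was sequenced from these 3 tissues of mice of the inbred strains DBA/2J (spelled DBA/2JJ in part of the labels), BALB/cJ and C57Bl/6J, on a high fat diet (HFD) or on regular chow (RC), after 5, 13 or 33 days. Each of the 18 combinations of strain, diet and day had 4 animals, identified by number, so 72 libraries entered per tissue and each animal gave all 3 tissues. Sex and age are not given in the sources used here, no animal carried an engineered allele by the labels, and 8 further liver samples, lettered pairs from 4 animals, were not analysed here. Levels are log2 CPM (read counts scaled to the size of each library) as deposited. A gene was called changed at an adjusted p under 0.05 in limma's moderated test over all genes of the tissue, and a difference is always the group named first minus the other.

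Complement is set off by C1q on antibody, by mannose-binding lectins on sugars or by slow activation of C3 itself, and every route meets at C3 and C5 and ends in a pore of C5b to C9. Clotting runs through short cascades of serine proteases to thrombin, which cuts fibrinogen into fibrin, while antithrombin, protein C and protein S restrain it. Hepatocytes make most of these proteins, several as acute phase proteins, whereas C1q and properdin come mainly from macrophages and other myeloid cells.

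Depth per library was 18078488 to 31991289 reads for liver, 19945355 to 33370016 for muscle and 19783483 to 46795074 for adipose tissue. In 2 livers of BALB/cJ on HFD at day 5 (animals 3HF201 and 3HF203) the acute phase gene Saa1 stood at 11.35 and 12.66, against 2.68 to 10.12 in 69 other livers. The liver of animal 3HF224 of the same group stood apart in another gene, with C8b at 6.36 against 7.55 to 9.54. Its Saa1 stood at 6.07, inside the range of the 69 others. The muscle of animal 1RC210 (C57Bl/6J, RC, day 33) had the slow fibre gene Myh7 at 6.20, against 12.11 to 14.56 in the other muscles. The adipose libraries of animals 3HF201 (day 5) and 3HF208 (day 33) of BALB/cJ on HFD had the fat cell gene Adipoq at 2.79 and 3.61, against 9.12 to 12.64 in the others. Cela1 stood at 9.72 and 6.40 in them, against -0.95 to 6.31, and Ttr at 10.53 and 11.73, against -2.68 to 8.53. What tissue these libraries hold was not tested, and both stay in the adipose fits unless stated. Nnt, in which C57Bl/6J mice are known to carry a deletion, ranged from -2.03 to -0.31 (median -0.94) in RC livers labelled DBA/2J, from -0.79 to 0.38 (median -0.32) in those labelled BALB/cJ and from -0.75 to 0.33 (median -0.04) in those labelled C57Bl/6J. In RC muscles it ranged from -0.93 to 0.30 (median -0.20) in DBA/2J, from -0.53 to 1.07 (median 0.67) in BALB/cJ and from -2.67 to -0.14 (median -0.29) in C57Bl/6J. C57Bl/6J thus had the highest median in liver and the lowest in muscle, with ranges that overlapped, so this gene did not check the strain labels, and a count over the whole gene need not show that deletion. Reads were aligned to GRCm38, which is built from C57Bl/6J, so sequence differences enter every strain difference.

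In RC livers the abundance of the members, as CPM per kilobase of exon, ran from the fibrinogen chains down to factor B. The fibrinogen chains Fgg (median 1629, range 1151 to 2348, n = 36) and Fga (1558), the central complement protein C3 (1375) and the fibrinogen chain Fgb (1102) were highest. The plasmin precursor Plg (738), high molecular weight kininogen Kng1 (668) and prothrombin F2 (387) followed. At the low end were the classical protease C2 (9.95), the lectin protease Masp1 (8.83), properdin Cfp (4.89) and factor B Cfb (1.47). Gm20547 on the same strand shares 79.5% of the exon bases of Cfb and 42.8% of those of C2. How such reads were counted is not given in the sources used here, so both levels may be too low. The scale divides by all annotated exon bases of a gene, 9833 for Masp1. Adipose tissue had its own leaders on the same scale, C3 (523, range 297 to 1167), the C1q chains C1qa (118) and C1qb (81.2) and the C1 protease C1s1 (72.6). In soleus muscle C1qa (10.9), C3 (10.8), C1s1 (9.91) and C1qb (8.74) led, while Fgg stood at 1.26 with a range of 0 to 88.1.

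The fibrinogen chains, encoded side by side on chromosome 3 (GRCm38), moved as a unit in liver. Around the group means of the 72 livers Pearson's r was 0.98 between Fgb and Fgg, 0.98 between Fga and Fgg and 0.97 between Fga and Fgb, against a median of 0.23 over all 780 pairs of members. These r describe levels from shared libraries and share their depth. The promoters of the 3 chains are shown because these genes moved together and because their highest values fell in the livers with the highest acute phase genes. The sequences are from RefSeq (GRCm38.p6) and run from 250 bases before to 50 bases after the start site: Fga at chr3:83025903-83026202 on the plus strand, Fgb at chr3:83049814-83050113 on the minus strand and Fgg at chr3:83007474-83007773 on the plus strand. Capitals mark a match to CTGGGAA, the acute phase element bound by STAT3, or to TTNNGCAA, a C/EBP motif, both searched on both strands.
Fga: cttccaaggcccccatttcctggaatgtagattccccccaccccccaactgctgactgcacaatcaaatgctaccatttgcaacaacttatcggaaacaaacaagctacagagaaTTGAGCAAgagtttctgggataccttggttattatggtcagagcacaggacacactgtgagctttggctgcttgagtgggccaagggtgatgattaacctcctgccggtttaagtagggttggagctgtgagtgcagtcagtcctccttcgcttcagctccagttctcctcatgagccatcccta
Fgb: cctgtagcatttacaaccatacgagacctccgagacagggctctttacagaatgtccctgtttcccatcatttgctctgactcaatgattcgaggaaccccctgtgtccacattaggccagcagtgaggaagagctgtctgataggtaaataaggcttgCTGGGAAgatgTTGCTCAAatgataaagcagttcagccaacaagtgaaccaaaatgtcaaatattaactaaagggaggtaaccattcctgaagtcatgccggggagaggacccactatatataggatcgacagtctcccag
Fgg: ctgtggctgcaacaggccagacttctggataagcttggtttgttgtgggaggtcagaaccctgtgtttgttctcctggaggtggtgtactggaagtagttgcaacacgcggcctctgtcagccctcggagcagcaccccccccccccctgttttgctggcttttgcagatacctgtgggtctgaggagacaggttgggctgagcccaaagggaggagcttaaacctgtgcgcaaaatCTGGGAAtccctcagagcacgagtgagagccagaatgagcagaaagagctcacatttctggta
CTGGGAA was found in 11.1% of all 32851 RefSeq promoters of this length and TTNNGCAA in 10.8%. In the 31 members with an entry, 6 held CTGGGAA (C1ra, Masp2, C6, F9, Fgb and Fgg) and 10 held TTNNGCAA. In Fga the C/EBP match began at base -135 from the start site, in Fgb CTGGGAA began at -91 and TTGCTCAA, the same C/EBP motif read from the other strand, at -80, and in Fgg CTGGGAA began at -13. None of these marked matches overlap. A match is a description of letters and not a binding site.

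**Figure D1:**
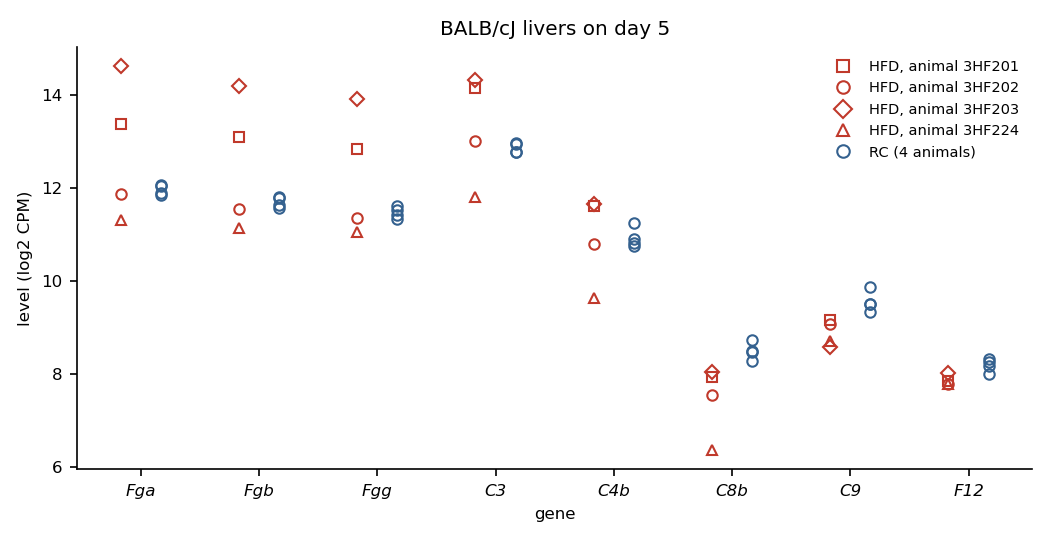
Levels (log2 CPM) of 8 members in the 8 BALB/cJ livers of day 5, with each HFD animal as its own red symbol on the left of each gene and the 4 RC animals as blue circles on the right. Animals 3HF201 and 3HF203 lie above every RC animal for Fga, Fgb, Fgg, C3 and C4b, whereas all 4 HFD animals lie below every RC animal for C9 and C8b.

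In BALB/cJ on HFD at day 5, Fga stood at 13.38 and 14.62 in animals 3HF201 and 3HF203 and at 11.86 and 11.31 in animals 3HF202 and 3HF224, against 11.85, 11.88, 12.05 and 12.07 on RC. Fgb stood at 13.09 and 14.20 in animals 3HF201 and 3HF203 and at 11.55 and 11.13 in the other HFD animals, against 11.57, 11.64, 11.79 and 11.81 on RC. So 2 of 4 HFD livers were high, both above the highest of the 69 other livers (13.02 for Fga, 12.90 for Fgb), and the groups overlapped through the other 2. C3 was high in the same animals (14.14 and 14.32, against 12.01 to 13.54 in the 69 others), and so was C4b (11.61 and 11.66, against 9.48 to 11.33). Over all days of BALB/cJ the diet difference did not pass for Fga (0.41 ± 0.18 (SE), adjusted p = 0.115, limma), Fgb (0.40 ± 0.17, 0.0954) or Fgg (0.43 ± 0.17, 0.0667), and as plain means without animals 3HF201 and 3HF203 it was 0.01, 0.01 and 0.07. The part of these animals' acute phase levels in the other members' values was not tested.

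As a mean over strains and days, antithrombin, prothrombin and factors VII, X and XII were lower in livers on HFD, and the mannose-binding lectin Mbl1 was higher. Over strains and days 14 of 40 passed, against 21.2% of 12611 genes, with 1 higher (10.9% of all genes were higher) and 13 lower (10.3% of all genes were lower). The median difference of the members was -0.07 (log2), against 0.01 over all genes. Without animals 3HF201 and 3HF203, 16 passed, and without 3HF224 as well 14. In these bulk samples fewer cells of a type and less RNA per cell cannot be told apart, and the summed hepatocyte markers also ran lower on HFD (85947 to 162408 CPM, median 113307) than on RC (104716 to 172990, median 130355), with 7 of 10 of these markers called lower. The part of that shift in the members' values was not tested.

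Of the 14, 7 had the same sign in every strain, Mbl1 higher and 6 lower (F2, F7, F10, F12, Kng1 and Serpinc1). The size still varied between strains for F7 and F10 (limma F test, adjusted p = 0.00156 and 0.00782). On days 5, 13 and 33 F7 differed by -0.65, -0.13 and -0.69 in DBA/2J. The F7 differences were 0.06, 0.01 and -0.08 in BALB/cJ and -0.01, -0.06 and -0.18 in C57Bl/6J. The sign of F7 in BALB/cJ thus changed between days, and it counts as lower there only by its mean over days. Serpinc1 (chr1:160978585-161005863, GRCm38, GENCODE annotation), which encodes antithrombin, the main inhibitor of thrombin and factor Xa, ranged from 10.27 to 11.19 on HFD (median 10.81, n = 36), against 10.76 to 11.47 on RC (median 10.98). The groups overlapped, but 15 of 36 HFD livers lay below the lowest RC liver, and the difference was -0.21 ± 0.03 (SE, adjusted p = 3.52e-07, limma). On the opposite strand, exons of Zbtb37 cover 34.4% of the Serpinc1 exons. Prothrombin F2 ranged from 10.28 to 10.96 (median 10.68) on HFD, against 10.56 to 11.11 (median 10.80) on RC, with 13 HFD livers below every RC liver (-0.14 ± 0.03, adjusted p = 0.000239, or -0.03 and 0.280 after quantile normalization). Factor XII (F12, chr13:55417958-55426793), which starts the contact pathway, ranged from 7.78 to 9.14 (median 8.59) on HFD, against 7.92 to 9.21 (median 8.76) on RC (-0.14 ± 0.02, adjusted p = 1.50e-05). The diets overlapped, with 6 HFD livers below every RC liver.

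Factor X (F10), the protease that makes thrombin, ranged from 8.31 to 9.13 (median 8.65) on HFD, against 8.49 to 9.21 (median 8.83) on RC (-0.15 ± 0.03, adjusted p = 0.000150). Factor VII (F7, chr8:13026034-13035809), which with tissue factor starts the extrinsic pathway, ranged from 5.84 to 7.15 (median 6.43) on HFD, against 6.16 to 7.08 (median 6.58) on RC (-0.19 ± 0.04, adjusted p = 0.000648). For each of them 6 HFD livers lay below all RC livers, and 1 HFD liver lay above them for F7. The mannose-binding lectin Mbl1 was the member that rose, at 7.13 to 8.25 (median 7.73) on HFD, against 6.86 to 7.99 (median 7.56) on RC, with 5 HFD livers above every RC liver (0.18 ± 0.05, adjusted p = 0.00941). The other 8 called genes fell by 0.09 to 0.42, among them the C1 proteases C1ra (-0.11, adjusted p = 0.00151) and C1s1 (-0.11, 0.000384), C8b of the membrane pore (-0.28, 0.00662), the lectin protease Masp1 (-0.21, 0.00561) and the inhibitor C4bp (-0.15, 0.00354).

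**Figure D2:**
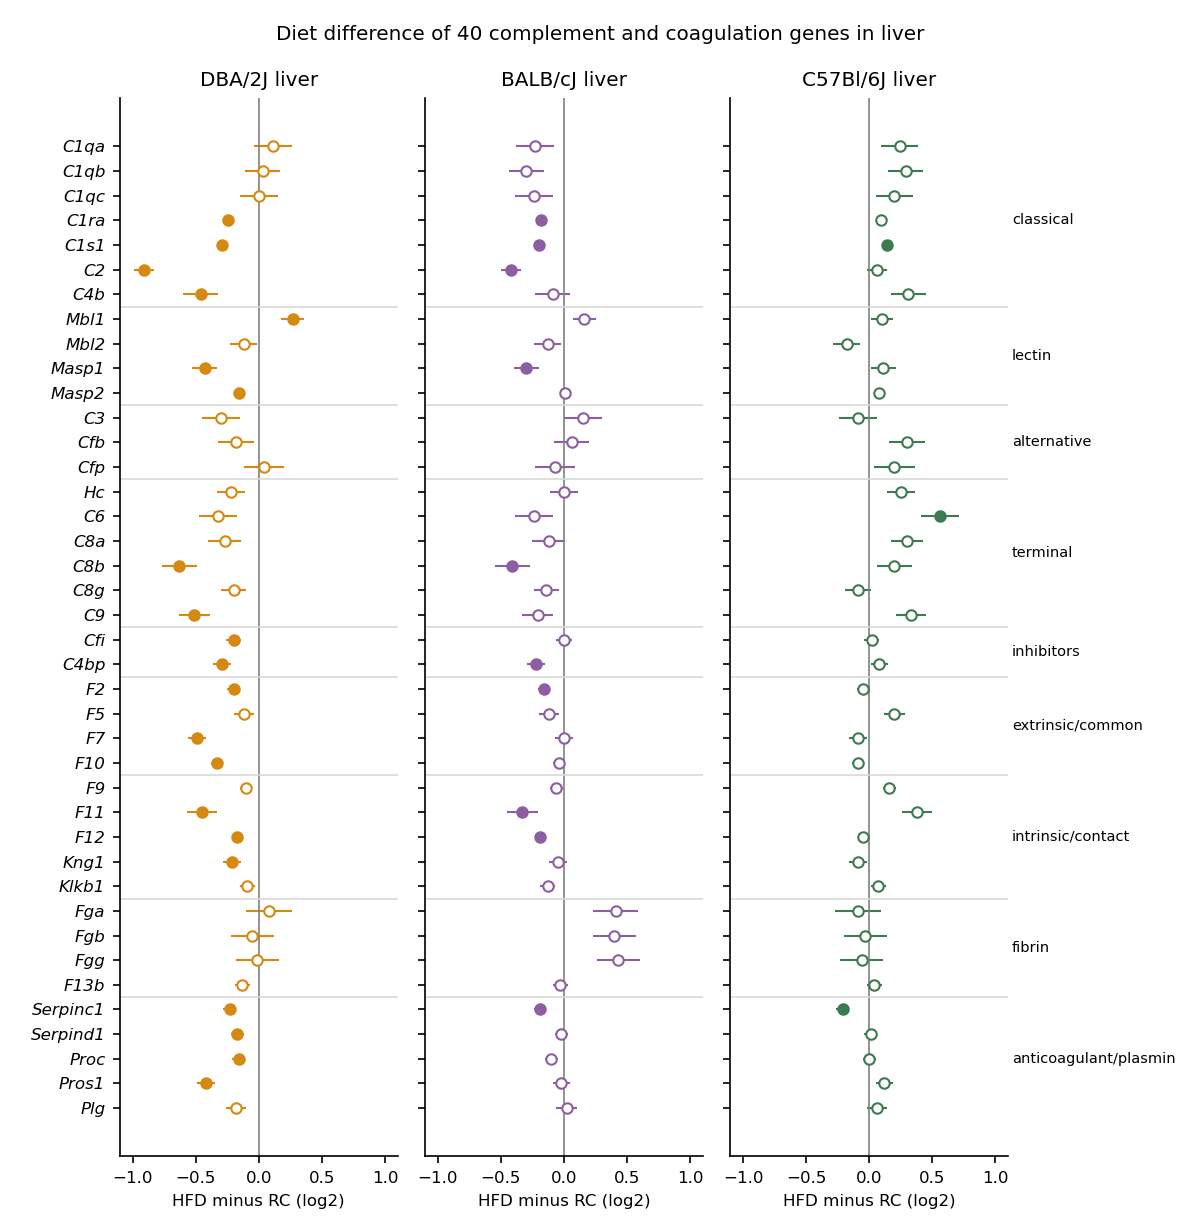
HFD minus RC difference (log2, point, with its standard error as a bar) of each of the 40 members in liver, in DBA/2J, BALB/cJ and C57Bl/6J (12 animals on each diet), ordered by role, with filled points for adjusted p under 0.05. Filled points lie left of 0 for 20 members in DBA/2J, 10 in BALB/cJ and 1 in C57Bl/6J.

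The strains differed in how their livers responded. The diet difference varied between strains in 17 of 40 members (limma F test), against 15.7% of all genes. By role these were 4 of 7 classical, 2 of 4 lectin, 0 of 3 alternative, 4 of 6 terminal, 1 of 2 inhibitor, 3 of 4 extrinsic and common, 2 of 5 intrinsic, 0 of 4 fibrin and 1 of 5 anticoagulant and plasmin genes. In DBA/2J 21 members passed, against 21.6% of all genes, with 1 higher (10.6% of all genes) and 20 lower (11% of all genes), and the median was -0.20 against 0.00 over all genes. In BALB/cJ 10 passed, against 14.8% of all genes, with 0 higher (7.89% of all genes) and 10 lower (6.91% of all genes), and the median was -0.11 against 0.01. After quantile normalization, the BALB/cJ count was 4, of which Fga (0.54), Fgb (0.45) and Fgg (0.49) were higher and C2 (-0.41) was lower. Animals 3HF201 and 3HF203 enter these fibrinogen values. As plain means of the deposited levels without them, the differences of Fga, Fgb and Fgg were 0.01, 0.01 and 0.07. In C57Bl/6J 3 passed, against 2.31% of all genes, with 2 higher (1.02% of all genes) and 1 lower (1.28% of all genes), and the median was 0.08 against 0.00.

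C2 (chr17:34862604-34898265, minus strand), the protease that pairs with C4b in the classical and lectin convertase, showed the clearest case. In DBA/2J it ranged from 4.03 to 5.04 (median 4.28, n = 12) on HFD, against 5.20 to 5.57 (median 5.32) on RC, so the diets did not overlap and all 12 HFD livers lay below every RC liver. It was 1.88-fold lower on HFD (-0.91 ± 0.08, adjusted p = 5.85e-14, limma). In BALB/cJ it ranged from 4.23 to 5.00 (median 4.76) on HFD, against 4.68 to 5.48 (median 5.24) on RC, with 5 HFD livers below the lowest on RC (-0.42 ± 0.08, adjusted p = 8.93e-05). In C57Bl/6J the difference was 0.06 ± 0.08 (adjusted p = 0.844), and the difference between strains had an adjusted p of 5.56e-08. The annotation places 42.8% of the C2 exons inside Gm20547 on the same strand, together with 79.5% of those of its neighbour Cfb, so how the authors' counting divided those reads is not given in the sources used here.

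Both C1 proteases, which sit side by side on chromosome 6, had a like split between strains. C1s1 (chr6:124530345-124542359) ranged from 8.10 to 8.96 (median 8.41) on HFD in DBA/2J, against 8.67 to 8.90 (median 8.81) on RC, with 8 HFD livers below and 3 above every RC liver (-0.29 ± 0.04, adjusted p = 6.10e-07). In BALB/cJ it ranged from 8.27 to 8.91 (median 8.76) on HFD, against 8.67 to 8.99 (median 8.87) on RC (-0.20 ± 0.04, adjusted p = 0.000766, or -0.09 and 0.193 after quantile normalization). In C57Bl/6J it was higher, at 8.82 to 9.28 (median 9.17) on HFD, against 8.83 to 9.12 (median 9.02) on RC (0.14 ± 0.04, adjusted p = 0.0491), a call lost in 18 of 24 fits that left out 1 animal. The adjusted p for a difference between strains was 1.85e-06. C1ra differed by -0.24 in DBA/2J, -0.18 in BALB/cJ and 0.09 in C57Bl/6J (0.000375 between strains). Both have a close copy in the genome (C1rb and C1s2), so reads may have been shared between copies.

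Factor VII, protein S and factor XI of the clotting system were also lower on HFD in DBA/2J, by an amount that differed between strains. F7 ranged from 5.84 to 6.82 (median 6.19) on HFD in DBA/2J, against 6.70 to 7.08 (median 6.76) on RC, with 9 of 12 HFD livers below every RC liver (-0.49 ± 0.07, adjusted p = 1.31e-06), against differences of -0.00 in BALB/cJ and -0.09 in C57Bl/6J that did not pass (between strains 0.00156). Protein S (Pros1, chr16:62854307-62929346), the cofactor of activated protein C, ranged from 4.84 to 5.68 (median 5.32) on HFD in DBA/2J, against 5.55 to 5.95 (median 5.70) on RC (-0.42 ± 0.07, adjusted p = 1.02e-05), and differed by -0.02 in BALB/cJ and 0.12 in C57Bl/6J (between strains 0.000310). Factor XI (F11, chr8:45241174-45262031), which activates factor IX, ranged from 6.38 to 7.57 (median 6.82) on HFD in DBA/2J, against 6.86 to 7.71 (median 7.45) on RC (-0.45 ± 0.12, adjusted p = 0.00354). Its difference was -0.33 ± 0.12 in BALB/cJ (adjusted p = 0.0485) and 0.38 ± 0.12 in C57Bl/6J (adjusted p = 0.0744), and 0.000524 between strains.

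The remaining genes called in DBA/2J were lower by 0.16 to 0.63, apart from Mbl1, which was higher (0.27). They included C8b (-0.63 ± 0.14, adjusted p = 0.000413) and C9 (-0.51 ± 0.12, 0.00160), which build the membrane pore, and C4b (-0.46 ± 0.14, 0.0109), the C4 gene of the classical pathway, whose near copy C4a (-0.86 ± 0.22, 0.00303) was also lower and may share reads with it. Both complement inhibitors fell, factor I (Cfi, -0.20) and the C4b-binding protein C4bp (-0.29), and so did F10 (-0.33), antithrombin (-0.23) and protein C (Proc, -0.16). Of the fibrin genes 0 passed in DBA/2J, with differences of 0.08 for Fga, -0.05 for Fgb and -0.01 for Fgg. In BALB/cJ the third gene by p was F12, at 7.78 to 8.03 (median 7.91) on HFD, against 7.92 to 8.31 (median 8.09) on RC, with 6 HFD livers below every RC liver (-0.19 ± 0.04, adjusted p = 0.00119, or -0.07 and 0.222 after quantile normalization).

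C57Bl/6J livers had a higher C6 and a lower Serpinc1 on HFD. C6 (chr15:4727175-4814967), a stalk protein of the membrane pore, ranged from 8.28 to 9.45 (median 9.07) on HFD, against 7.93 to 8.95 (median 8.56) on RC, with 8 of 12 HFD livers above every RC liver (0.56 ± 0.15, adjusted p = 0.0283), a call lost in 9 of 24 fits that left out 1 animal. It differed by -0.32 in DBA/2J and -0.24 in BALB/cJ, neither of which passed, with an adjusted p of 0.00373 for a difference between strains. Serpinc1 ranged from 10.78 to 11.06 (median 10.97) on HFD, against 11.02 to 11.47 (median 11.12) on RC, with 10 of 12 HFD livers below every RC liver (-0.21 ± 0.05, adjusted p = 0.0152, or 0.121 in a fit of C57Bl/6J alone). Antithrombin was thus lower on HFD in each strain (-0.23 in DBA/2J, -0.19 in BALB/cJ), though in BALB/cJ it did not pass after quantile normalization. The C57Bl/6J count rested on single animals: it was 1 without any of 1HF249, 1HF252, 1HF253, 1HF258, 1HF259, 1RC210, 1RC227 or 1RC228, and 6 without 1HF209 (day 33). In a fit of the C57Bl/6J livers alone it was 1, C6.

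The diet difference also changed with time, and its course was not steady. It varied between days in 15 of 40 members (limma F test), against 3.35% of all genes. The median difference of the members was -0.19 on day 5, 0.10 on day 13 and -0.14 on day 33, against 0.01 on each day over all genes. Day 13 had the highest of the 3 differences in 32 of 40 members (80%), in 14 of the 15 called (93.3%) and in 4509 of 12611 genes (35.8%). Without animals 3HF201 and 3HF203, 18 members passed, and with quantile normalization 9 did. By role the 15 called were 3 classical, 3 terminal, 1 inhibitor, 1 extrinsic and common, 4 intrinsic and 3 anticoagulant genes, and 0 lectin, alternative or fibrin genes.

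By library, C2 in DBA/2J on HFD stood at 4.18, 4.19, 4.29 and 4.37 on day 5, at 4.62, 4.97, 4.98 and 5.04 on day 13 and at 4.03, 4.16, 4.27 and 4.28 on day 33. On RC it stood at 5.20, 5.28, 5.32 and 5.42 on day 5, at 5.20, 5.38, 5.51 and 5.57 on day 13 and at 5.26, 5.31, 5.32 and 5.50 on day 33. In DBA/2J the chow livers overlapped between days, whereas the HFD livers of day 13 lay above those of both other days. The other strains did not share this pattern. In BALB/cJ the means on days 5, 13 and 33 were 4.71, 4.86 and 4.62 on HFD and 5.34, 4.85 and 5.27 on RC. In C57Bl/6J they were 5.23, 5.27 and 5.10 on HFD and 5.26, 4.96 and 5.21 on RC. The differences were -1.05, -0.51 and -1.16 in DBA/2J, -0.63, 0.01 and -0.66 in BALB/cJ and -0.02, 0.30 and -0.11 in C57Bl/6J on days 5, 13 and 33. The adjusted p for a change between days was 0.00102.

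C1s1 in DBA/2J on HFD stood at 8.31, 8.36, 8.36 and 8.41 on day 5, at 8.78, 8.90, 8.92 and 8.96 on day 13 and at 8.10, 8.27, 8.40 and 8.47 on day 33. On RC every library of that strain lay between 8.67 and 8.90. HFD livers were therefore below all RC livers on days 5 and 33 and overlapped them on day 13, and over strains the differences were -0.24, 0.10 and -0.20 (SE 0.04, adjusted p between days = 0.000458). C9 (chr15:6445327-6498751), which polymerises into the pore, stood at 9.07, 9.09, 9.35 and 9.43 on day 5 in DBA/2J on HFD, against 10.27, 10.28, 10.42 and 10.44 on RC, and at 10.22, 10.38, 10.45 and 10.70 on day 13, against 10.03, 10.28, 10.34 and 10.62. Its HFD livers lay below RC on day 5 and overlapped RC on day 13, and over strains the differences were -0.58, 0.39 and -0.21 (SE 0.12, adjusted p = 0.00166).

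Factor XI and its neighbour on chromosome 8, prekallikrein (Klkb1), followed the same order of days. F11 in BALB/cJ stood at 5.48, 5.83, 5.90 and 6.23 on HFD on day 5, against 6.80, 6.80, 6.87 and 7.05 on RC, and at 6.60, 6.85, 7.05 and 7.23 on day 13, against 6.15, 6.53, 6.95 and 7.11. The diets did not overlap on day 5 and overlapped on day 13. Over strains the F11 difference was -0.53, 0.29 and -0.16 (SE 0.12, adjusted p = 0.00663), and that of Klkb1 -0.29, 0.16 and -0.02 (SE 0.06, adjusted p = 0.00188). Klkb1 shares 43.2% of its exons with Gm45753 on the same strand. C6 in BALB/cJ stood at 6.76, 6.77, 7.11 and 7.26 on HFD on day 5, all below 7.62, 7.87, 8.04 and 8.35 on RC, and its day 13 values of 8.22, 8.24, 8.42 and 8.60 overlapped 7.14, 7.23, 7.75 and 8.74 on RC (between days 0.0481).

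On chow alone day 33 minus day 5 called 0 of 40 members in limma, against 0.666% of all genes, and 4 had an unadjusted p under 0.05. The median of this comparison was -0.09 against 0.01 over all genes. Day 13 on chow was not tested against the other days. On RC the day 13 mean of C2 was the lowest of the 3 days in BALB/cJ (4.85) and C57Bl/6J (4.96). In DBA/2J it was the highest (5.41). Whether libraries of the 3 days were prepared together is not given in the sources used here, so day and a preparation batch cannot be told apart. HFD and RC were both present on each day.

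**Figure D3:**
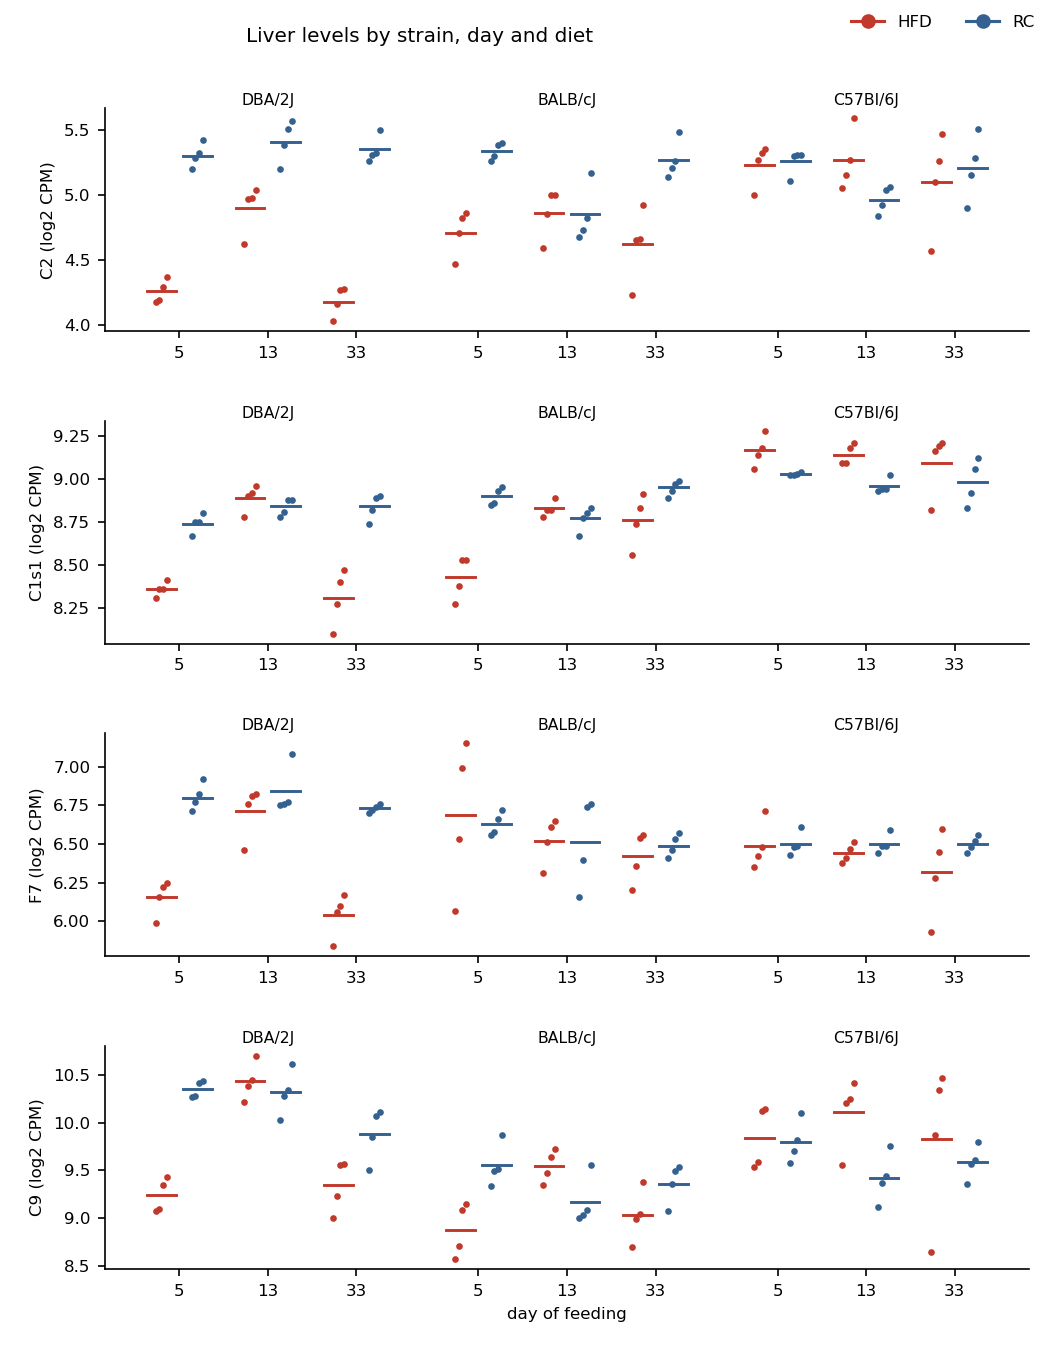
Levels (log2 CPM) of C2, C1s1, F7 and C9 in every liver by strain and day of feeding, HFD in red left of RC in blue, 4 animals per group, with a bar at the mean. In DBA/2J the HFD livers lie below RC on days 5 and 33 in C2, C1s1 and F7, and closer to RC on day 13.

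Genes outside the member list served as a setting for these differences. Of 27 other complement genes with a row in liver, 3 passed over all strains (0 higher and 3 lower: Susd4, Cfhr2 and C4a) with a median of -0.04, and of 26 other coagulation genes 7 passed (0 higher and 7 lower, among them the HGF activator Hgfac, -0.28 ± 0.04, and hepsin, Hpn, -0.13 ± 0.02) with a median of -0.07. Of 20 acute phase genes 3 passed (1 higher and 2 lower; median 0.16), and of 10 interferon-induced genes 4 (3 higher and 1 lower; median 0.06). In DBA/2J these counts were 2 lower, 7 lower, 5 lower and 4 lower, and in C57Bl/6J 6 interferon-induced genes were higher. Of 12 liver transcription factors 2 passed (Foxa2 higher, 0.28 ± 0.10, and Cebpd lower, -0.35 ± 0.10). Markers of macrophages (0 of 10) and fat cells (0 of 7) did not pass, and the macrophage sums overlapped (127 to 549 CPM on HFD, against 95.8 to 295 on RC).

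Members of macrophage origin kept to themselves in liver. C1qa, C1qb and C1qc, next to each other on chromosome 4, had r of 0.96 to 0.97 around the group means, and Cfp had 0.90 with C1qc. Their levels over the 72 livers had r of 0.83 to 0.94 with the mean log2 CPM of the macrophage markers. None of the 4 was called in any diet comparison in liver. Apart from the fibrinogen chains, pairs of hepatocyte members on the same chromosome gave lower values. Among them were 0.83 for C8a with C8b, 0.74 for C6 with C9 and 0.63 for F7 with F10. Others were 0.50 for C1ra with C1s1, 0.48 for F11 with Klkb1, 0.45 for C2 with C4b and 0.27 for C2 with Cfb. Within groups the fibrinogen chains had r of 0.81 to 0.83 with the mean log2 CPM of the acute phase genes outside the member list. On the same measure C4b had 0.78 and C3 had 0.71. These are descriptions over libraries that share depth and, through animals 3HF201 and 3HF203, a pair of extreme values.

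On chow the share of members that differed between strains lay near that of all genes. DBA/2J minus C57Bl/6J called 17 of 40 members, against 48.1% of all genes, with 10 higher (23.9% of all genes) and 7 lower (24.2% of all genes). BALB/cJ minus C57Bl/6J called 18, against 46.8%, with 5 higher (22.9%) and 13 lower (23.9%), or 2 higher and 16 lower after quantile normalization. BALB/cJ minus DBA/2J called 18, against 42.1%, with 2 higher (20.6%) and 16 lower (21.5%). The medians were 0.03, -0.09 and -0.10, against -0.01 over all genes in each. Each strain's RC livers enter 2 of these comparisons, so the 3 are not independent.

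Hc (chr2:34983331-35061438) encodes C5, which DBA/2J mice are known to lack in plasma. It averaged 7.82 ± 0.26 (SD, n = 12, range 7.43 to 8.22) in DBA/2J on RC, against 10.02 ± 0.22 (range 9.63 to 10.38) in C57Bl/6J, without overlap (-2.20 ± 0.11, 4.61-fold lower, adjusted p = 9.29e-26). BALB/cJ ranged from 9.51 to 10.11 (median 9.85). The order held on HFD, where DBA/2J ranged from 6.88 to 8.26, BALB/cJ from 9.13 to 10.48 and C57Bl/6J from 9.58 to 10.76. Hc was called in no diet comparison in liver.

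F12 separated all 3 strains. It ranged from 7.92 to 8.31 (median 8.09) in BALB/cJ on RC, from 8.67 to 8.93 (median 8.76) in DBA/2J and from 8.88 to 9.21 (median 9.05) in C57Bl/6J. BALB/cJ overlapped neither of the others (-0.95 ± 0.04, adjusted p = 1.13e-28, 1.93-fold lower than C57Bl/6J and -0.68 ± 0.04, adjusted p = 1.10e-21, 1.61-fold lower than DBA/2J), and in DBA/2J 10 of 12 livers lay below every C57Bl/6J liver (-0.27 ± 0.04, adjusted p = 1.95e-07). F11 had another order: 6.86 to 7.71 (median 7.45) in DBA/2J, against 5.54 to 6.61 (median 6.33) in C57Bl/6J, without overlap (1.16 ± 0.12, 2.23-fold higher, adjusted p = 1.41e-12). BALB/cJ lay between, at 6.15 to 7.11 (median 6.79), higher than C57Bl/6J by 0.48 ± 0.12 (adjusted p = 0.000601) and lower than DBA/2J by -0.68 ± 0.12 (adjusted p = 3.45e-06).

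Of the anticoagulant and plasmin genes 5 of 5 passed between DBA/2J and C57Bl/6J, against 48.1% of all genes. Of these 3 were higher (Serpind1 0.27, Proc 0.13 and Plg 0.35), against 23.9% of all genes. The other 2 were lower (Serpinc1 -0.20 and Pros1 -0.30), against 24.2% of all genes. Pros1 ranged from 4.89 to 5.65 (median 5.34) in BALB/cJ, against 5.77 to 6.21 (median 5.99) in C57Bl/6J, without overlap (-0.71 ± 0.07, 1.64-fold lower, adjusted p = 5.64e-13). Heparin cofactor II (Serpind1) ranged from 9.02 to 9.25 (median 9.15) in BALB/cJ, against 9.37 to 9.58 (median 9.49) in DBA/2J, also without overlap (-0.34 ± 0.05, adjusted p = 8.59e-08). Of the contact pathway genes 4 of 5 stood lower in BALB/cJ livers than in those of DBA/2J (F11, F12, Kng1 -0.35 and Klkb1 -0.34). Of all genes 21.5% were called lower there. These roles were named with their values known, and no role was tested as a set.

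The lectin proteases went in opposite directions. Masp2 ranged from 7.52 to 7.66 (median 7.61) in DBA/2J, against 7.73 to 8.11 (median 7.97) in C57Bl/6J, without overlap (-0.34 ± 0.04, adjusted p = 2.04e-10), and from 7.56 to 7.79 (median 7.65) in BALB/cJ (-0.28 ± 0.04 relative to C57Bl/6J, adjusted p = 2.94e-08, with 11 of 12 livers below). Its exons overlap those of Tardbp on the opposite strand over 54.9% of their length. Masp1 was higher in both, at 6.07 to 6.98 (median 6.51) in BALB/cJ, against 5.25 to 6.39 (median 5.88) in C57Bl/6J (0.68 ± 0.10, adjusted p = 7.16e-08), and by 0.64 ± 0.10 in DBA/2J (adjusted p = 2.65e-07). C9 averaged 9.36 ± 0.27 (SD, n = 12, median 9.42, highest 9.87) in BALB/cJ, against 10.19 ± 0.30 (median 10.28, lowest 9.50) in DBA/2J, with 8 BALB/cJ livers below every DBA/2J liver (-0.83 ± 0.12, adjusted p = 1.56e-07).

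**Figure D4:**
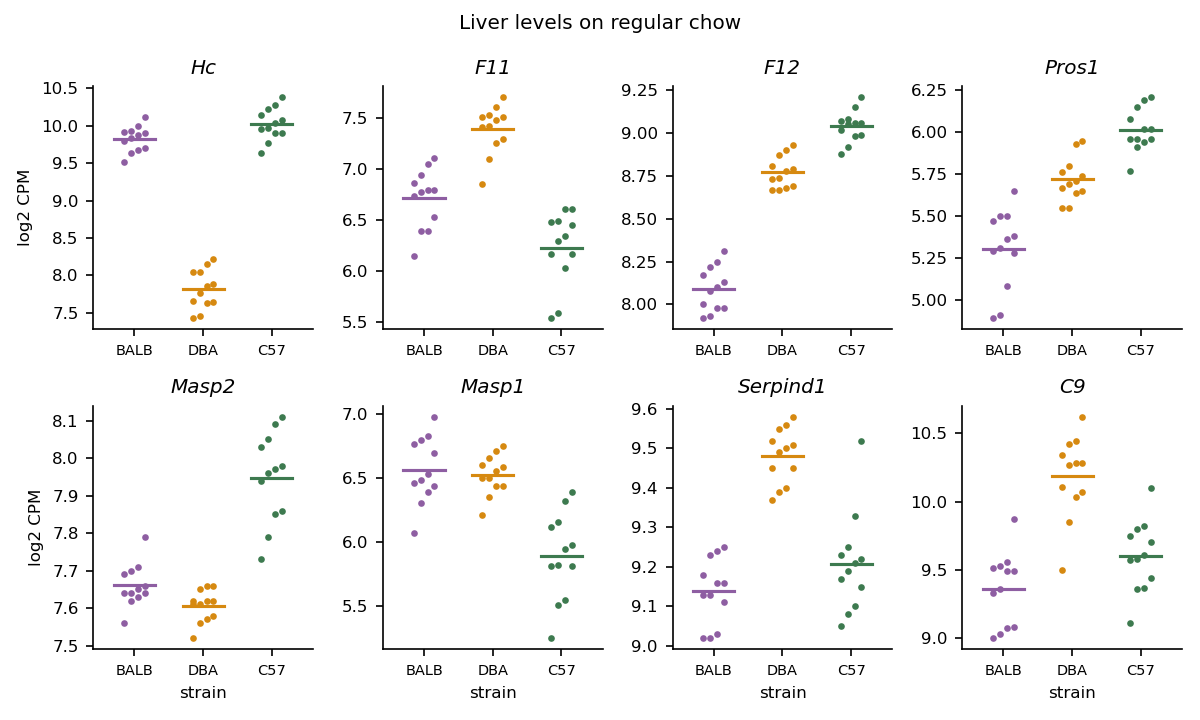
Levels (log2 CPM) of Hc, F11, F12, Pros1, Masp2, Masp1, Serpind1 and C9 in RC livers of BALB/cJ, DBA/2J and C57Bl/6J (12 animals each as points, bar at the mean). Hc in DBA/2J lies at 7.43 to 8.22, below every other liver, and F12 in BALB/cJ lies at 7.92 to 8.31, below every other liver.

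In soleus muscle and adipose tissue many members were read at levels that followed the hepatocyte gene Alb. As a measure, the Alb reads of each library were multiplied by the ratio of a member to Alb in the same animal's liver, and the sum over 72 animals was set against the reads found. In muscle this number came to more than 50% of the reads found for 25 of 38 members, with 99.3% for Fgb, 98.2% for Fgg, 91.9% for Serpinc1 and 77.3% for F2. It exceeded the reads found for others, among them C8b (136%), C9 (132%) and Fga (127%). It came to less than 5% for 6 members, C1qa (0.693%), C1qc (0.76%), C1qb (0.884%), Pros1 (1.22%), Cfp (1.24%) and Masp1 (3.49%). In adipose tissue it exceeded 50% for 18 of 38 members, with 160% for Fga. It stayed under 5% for 12, among them C1qa (0.0338%), C2 (0.188%), C1s1 (0.35%), C3 (0.467%), Cfb (0.982%) and C6 (4.97%). Libraries with many reads weigh most in these sums: Fgg in muscle had a median of 20 reads and a highest of 4470. The summed hepatocyte markers of muscle ranged from 0.685 to 1587 CPM on HFD (median 14) and from 0.5 to 8618 on RC (median 86.4), and how liver RNA or local synthesis contributed was not tested.

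**Figure D5:**
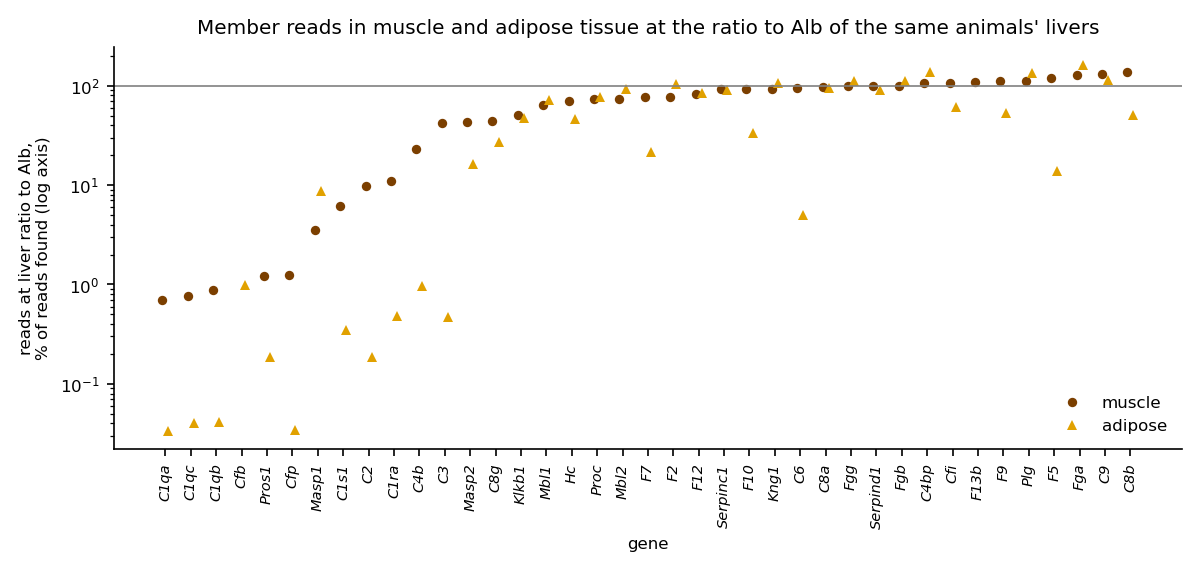
Reads of each member calculated from Alb at the ratio of the same animals' livers, as a percentage of the reads found (log axis), in muscle (circles) and adipose tissue (triangles), with a line at 100. C1q chains, Pros1 and Cfp lie near or below 1 in muscle, and Fgb and Fgg lie near 100.

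No member passed for diet in muscle. Over strains and days 0 of 38 passed in limma, against 17.4% of all genes (4 at an unadjusted p under 0.05). The count was 0 in DBA/2J, against 8.73% (15 at an unadjusted p under 0.05), 0 in BALB/cJ, against 11.5% (1), and 0 in C57Bl/6J, against 5.75% (0). It was also 0 for a difference between strains, against 9.83% (0 at an unadjusted p under 0.05), 0 between days, against 0.99% (0), and 0 for day 33 minus day 5 on RC, against 2.85% (1). The median of the members was -0.79 over strains (0.00 over all genes) and -1.76 in DBA/2J (-0.00 over all genes), where the summed hepatocyte markers ran from 3.62 to 1587 CPM on HFD (median 15.4) and from 3.46 to 6308 on RC (median 273). With these markers as a covariate, chosen after seeing the data, the DBA/2J median was -0.39. The DBA/2J count was 5 without 2HF230, 2 without 2RC210 and 1 without 2RC208 or 2RC229.

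Between strains on chow, C1q chains were among the called members of muscle in each pair of strains. DBA/2J minus C57Bl/6J called 2 of 38, against 37% of all genes, with 0 higher (17.6%) and 2 lower (19.4%). C1s1 ranged from 3.68 to 5.75 (median 4.73) in DBA/2J, against 4.69 to 6.17 (median 5.20) in C57Bl/6J (-0.49 ± 0.15, adjusted p = 0.00552), and C1qb from 1.63 to 3.31 (median 2.76), against 1.66 to 4.93 (median 3.26) (-0.60 ± 0.20, adjusted p = 0.0156), so the groups overlapped for both. Neither passed with the range of animal numbers as a covariate (adjusted p = 0.0545 and 0.344). The count was 1 without 1RC226 or 2RC203. BALB/cJ minus C57Bl/6J called 5, against 44.5%, with 3 higher (21.2%) and 2 lower (23.3%), or 3 higher and 5 lower after quantile normalization and 2 higher and 6 lower without muscle 1RC210. It was 18 without 1RC251, 16 without 1RC252 and 3 without 1RC235 or 1RC254. C1qa ranged from 3.70 to 4.52 (median 4.08) in BALB/cJ, against 1.92 to 4.63 (median 3.36) in C57Bl/6J (0.83 ± 0.19, adjusted p = 0.000349), and the BALB/cJ muscles lay inside the range of C57Bl/6J. Pros1 ranged from 4.20 to 4.79 (median 4.45), against 3.33 to 4.64 (median 4.21) (0.33 ± 0.09, adjusted p = 0.00184), and C1qc was higher by 0.54 ± 0.20 (adjusted p = 0.0196, or 0.42 and 0.0659 without muscle 1RC210). Mbl1 and C8g were lower, each with overlap. Mbl1 ranged from -3.74, the level of 0 reads, to -1.41 (median -3.22) in BALB/cJ, against -3.74 to 3.84 (median -0.37) in C57Bl/6J (-2.22 ± 0.85, adjusted p = 0.0294). That call was lost with a prior of 0.25 reads (adjusted p = 0.0636), with the range of animal numbers as a covariate (-1.77, 0.105) and without 1RC226, 1RC235 or 1RC254 (0.0690 to 0.0780). C8g ranged from -1.09 to 0.99 (median 0.15), against 0.04 to 4.41 (median 0.94) (-1.43 ± 0.59, adjusted p = 0.0425). Summed hepatocyte markers had a median of 28.5 CPM (lowest 0.5) in BALB/cJ, against 147 (lowest 0.739) in C57Bl/6J. With the mean log2 CPM of these markers as a covariate the Mbl1 difference was -0.73 (limma, adjusted p = 0.00988).

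BALB/cJ minus DBA/2J called 18 of 38 in muscle, against 40.4% of all genes, with 4 higher (19.8%) and 14 lower (20.6%). The 4 that were higher were C1qa (0.94 ± 0.19, adjusted p = 6.98e-05), C1qb (0.93 ± 0.20, 0.000177), C1qc (0.85 ± 0.20, 0.000345) and Pros1 (0.32 ± 0.09, 0.00302). C1qb ranged from 3.08 to 3.91 (median 3.59) in BALB/cJ, against 1.63 to 3.31 (median 2.76) in DBA/2J, with 10 of 12 BALB/cJ muscles above every DBA/2J muscle. Summed macrophage markers ran from 98.8 to 180 CPM (median 120) in BALB/cJ, from 40.2 to 114 (median 69.6) in DBA/2J and from 35.9 to 240 (median 74.5) in C57Bl/6J, and their part in the C1q difference was not tested. The 14 that were lower included F2, which ranged from 0.03 to 2.26 (median 1.20) in BALB/cJ, against 1.25 to 6.42 (median 2.83) in DBA/2J (-2.17 ± 0.56, adjusted p = 0.00143). F2 had at least 1 read in every muscle. It stood at -3.11 in the C57Bl/6J muscle 1RC210, against -0.02 to 6.44 in the 71 others. Summed hepatocyte markers had a median of 28.5 CPM in BALB/cJ (lowest 0.5) and of 273 in DBA/2J (lowest 3.46). With the mean log2 CPM of these markers as a covariate 12 members passed, 6 higher and 6 lower. The F2 difference was then -1.21 (limma, adjusted p = 0.00107). The count of 18 was 28 or 29 without 2RC201, 2RC208 or 2RC210, 7 without 2RC200, 2RC209 or 2RC211, 8 without 2RC231, 10 without 2RC228 and 11 without 3RC209, 3RC251, 3RC252 or 3RC255.

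In visceral adipose tissue 0 of 38 members passed for diet over strains in limma, against 2.67% of all genes (4 at an unadjusted p under 0.05: C1qa, C1qb, C1qc and Masp1, named after their values were seen). C1qb came closest (-0.30 ± 0.09, adjusted p = 0.0520), and it was lower with an adjusted p of 0.0171 to 0.0490 under 5 alternatives, alone or with others. The count was 0 in DBA/2J, against 0.411% (1 at an unadjusted p under 0.05), 0 in BALB/cJ, against 0.435% (9), and 0 in C57Bl/6J, against 0.115% (3). It was 0 between strains, against 0.0846% (3 at an unadjusted p under 0.05), 0 between days, against 0% (4), and 0 for day 33 minus day 5 on RC, against 0.0181% (1). C3 stood at 6.45 and 5.63 and C1s1 at 3.77 and 4.28 in the BALB/cJ HFD libraries 3HF201 and 3HF208, against 10.58 to 12.72 and 7.26 to 9.45 in the other adipose libraries, and without both the count over strains was again 0. Leaving out 1 library at a time, the count over strains lay above 0 for 21 of them, with 2 as the highest (without 2HF255), and the BALB/cJ count was 3 without 3HF202 and 2 without 3HF224.

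C6 in adipose tissue was the member that differed most between strains. DBA/2J minus C57Bl/6J called 8 of 38 on RC, against 41.7% of all genes, with 2 higher (21.2%) and 6 lower (20.5%). C6 ranged from -0.16 to 3.08 (median 1.01) in DBA/2J, against 3.63 to 5.30 (median 4.84) in C57Bl/6J, without overlap (-3.50 ± 0.42, adjusted p = 1.06e-09). BALB/cJ lay between, at 1.97 to 4.99 (median 2.90), lower than C57Bl/6J (-1.72 ± 0.42, adjusted p = 0.00239) and higher than DBA/2J (1.77 ± 0.42, adjusted p = 0.00168). In liver on RC the same gene did not differ between DBA/2J and C57Bl/6J at the threshold, and was lower in BALB/cJ than in either (-0.47 and -0.55). Hc in adipose tissue ranged from -3.81, the level of 0 reads, to 2.97 (median -0.69) in DBA/2J, against -0.88 to 2.56 (median 1.95) in C57Bl/6J (-2.82 ± 0.77, adjusted p = 0.00421, or -1.81 and 0.107 with the lymphoid markers as a covariate).

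BALB/cJ minus C57Bl/6J called 7 of 38, against 11.2% of all genes, with 1 higher (6.42%) and 6 lower (4.82%), and BALB/cJ minus DBA/2J called 2, against 16.2%, with 2 higher (7.33%) and 0 lower (8.92%). The C1q chains were lower in both strains than in C57Bl/6J. C1qb ranged from 6.08 to 6.84 (median 6.28) in DBA/2J and from 5.44 to 6.85 (median 6.27) in BALB/cJ, against 6.72 to 7.46 (median 7.05) in C57Bl/6J (-0.70 ± 0.15, adjusted p = 0.000489, and -0.77 ± 0.15, 0.000199), and C1qa differed by -0.49 and -0.50 and Cfp by -1.07 and -1.03. Summed macrophage markers ran from 751 to 2480 CPM (median 874) in DBA/2J, from 676 to 2807 (median 2096) in BALB/cJ and from 838 to 3171 (median 2784) in C57Bl/6J, and summed lymphoid markers from 12.7 to 2679 (median 21.9), from 7.59 to 2307 (median 1515) and from 22.9 to 2608 (median 1858). With the lymphoid markers as a covariate, chosen after seeing the data for this count, DBA/2J minus C57Bl/6J called 3 members, C6 (-3.34), Masp1 (-1.70) and C1qb (-0.57). Besides C6, Masp2 was higher in BALB/cJ than in DBA/2J, at 0.81 to 2.98 (median 2.00), against -2.01 to 1.69 (median -1.11) in DBA/2J (3.15 ± 0.60, adjusted p = 9.47e-05), with 9 of 12 BALB/cJ libraries above every DBA/2J library.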

How the data were processed

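The deposited tables hold log2 CPM values (read counts scaled to library size) with 1 library per column and a prior count, as read from the values. The submitters' processing notes name STAR 2.5.3a, edgeR and GRCm38, with no role or order. The labels' protocols give a stranded mRNA library and single reads of 100 bases. The read counter, its use of strand and the annotation are not given in the sources used here. Whole reads recovered from the log2 CPM values were within 0.05 of whole numbers for 100.0% of values in the lowest library, with a prior count of 0.25 (liver) or 2 (both other tissues), and these reads gave the depths and the liver ratios.

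Genes with a log2 CPM of 0 or more in 4 or more libraries entered the fit: 12611 for liver, 13637 for muscle, 16541 for adipose tissue. All members with a row passed that filter. Per tissue, limma 3.58.1 (R 4.3.3) fitted the 18 group means over 72 libraries on the log2 scale with a variance trend. Contrasts were means over days, with F tests for the diet difference between strains and between days, and Benjamini-Hochberg adjusted p-values were taken across every gene tested, at a threshold of 0.05. The fit was tested on simulated data. Alternatives were other filters, quantile normalization, another prior count, no variance trend, the range of animal numbers or marker means as covariates, a replicate block, fits of the compared groups only and leaving out each animal.

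Genes with full values were chosen by rank: up to 6 of smallest p for diet with 1 sign in 3 strains, up to 3 per strain, up to 6 between strains, up to 3 between days and up to 4 per pair of strains on RC, plus Hc. The members, gene lists and rules were chosen with earlier results of these data known. Lists outside the members were other complement, other coagulation, acute phase, interferon-induced and liver transcription factor genes and markers of hepatocytes, macrophages, lymphoid cells and fat cells. Gene positions are from the GENCODE annotation of GRCm38 and promoters from RefSeq. The labels give animal numbers, so replicates were taken as separate animals. Python 3.11.15, pandas 2.3.3, numpy 2.4.6 and matplotlib 3.10.9 were used for joins and plots.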

Additional observations from a re-analysis of the deposited data

Results flagged for a closer look

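The diet difference in liver varied between strains (limma F test, adjusted p over all genes) for C2 (5.56e-08), C1s1 (1.85e-06), Pros1 (0.000310), C1ra (0.000375), F11 (0.000524), F7 (0.00156), C9 (0.00196), C6 (0.00373), C8b (0.00438), Masp2 (0.00547), F10 (0.00782), C4bp (0.00805), Masp1 (0.0119), C4b (0.0123), F9 (0.0224), F5 (0.0390) and C8a (0.0415). These 17 were drawn out because the difference between strains itself was tested. In DBA/2J on HFD all 12 livers lay below every RC liver for C2, while in C57Bl/6J the difference of C2 did not pass.

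The diet difference in liver varied between days for C1s1 (0.000458), C2 (0.00102), C9 (0.00166), Klkb1 (0.00188), C1ra (0.00522), F11 (0.00663), Proc (0.0104), C8b (0.0114), Serpind1 (0.0114), Pros1 (0.0128), F9 (0.0172), C4bp (0.0230), F12 (0.0230), F2 (0.0234) and C6 (0.0481), again as adjusted p of limma's F test. In 14 of these 15 the day 13 difference was the highest of the 3 days.

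In 5 of 58 groups of 4 livers tested, 1 animal lay far from the other 3. They were C1s1 in HFD animal 1HF209 of C57Bl/6J on day 33 (8.82), C1s1 in RC animal 1RC229 of C57Bl/6J on day 13 (9.02), C2 in RC animal 1RC227 of C57Bl/6J on day 5 (5.11), C2 in HFD animal 2HF255 of DBA/2J on day 13 (4.62) and C9 in RC animal 3RC230 of BALB/cJ on day 13 (9.56). Chance flags about 1 in 20 groups.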

How the results depend on the processing

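Of 301 refitted counts of called members 277 stayed within 1.5 times the reported count, and of 2618 refits of 56 named values 49 lost the threshold and 0 changed sign; the cause of each move was not tested. With quantile normalization, the count was 4 for diet in BALB/cJ liver, 9 between days in liver, 8 for BALB/cJ minus C57Bl/6J in muscle and 1 for diet in adipose tissue. With only the compared groups in the fit, it was 1 for diet in C57Bl/6J liver, 6 in BALB/cJ liver, and in muscle 10 for BALB/cJ minus DBA/2J, 14 for BALB/cJ minus C57Bl/6J and 0 for DBA/2J minus C57Bl/6J. BALB/cJ minus DBA/2J in muscle came to 5 with the stricter filter, which drops 20 members there, 10 with a prior of 0.25 reads and 10 with the number range as a covariate. That covariate gave 0 for DBA/2J minus C57Bl/6J in muscle, 1 for diet in adipose tissue and 4 for diet in BALB/cJ adipose tissue. The stricter filter gave 1 for diet in adipose tissue. Settings chosen after seeing the data gave 8 for BALB/cJ minus C57Bl/6J in muscle without muscle 1RC210. The hepatocyte covariate gave in muscle 2 for diet in DBA/2J, 1 in BALB/cJ and 2 between strains, and 2 for diet in adipose tissue. The lymphoid covariate gave 3 each for diet over strains and in BALB/cJ and for DBA/2J minus C57Bl/6J in adipose tissue. Leaving out each animal in turn gave 1 to 6 for diet in C57Bl/6J liver, 3 to 18 (without RC animals 1RC235 and 1RC251 of C57Bl/6J) for BALB/cJ minus C57Bl/6J in muscle, 7 to 29 (without RC animals 2RC200 and 2RC201 of DBA/2J) for BALB/cJ minus DBA/2J, 1 to 3 for DBA/2J minus C57Bl/6J, 0 to 5 (without HFD animal 2HF230) for diet in DBA/2J muscle, 0 to 3 (without HFD animal 3HF202) for diet in BALB/cJ adipose tissue and 0 to 2 (without DBA/2J HFD animal 2HF255) for diet over strains there.

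Animal numbers recur between diets, and the labels do not say that they mark a shared litter or batch. Over 20 liver pairs with 1 number, r of the deviations from group means ran from -0.43 to 0.59, with 11 over 0.1 and 12 in which the same number gave the best match, so not every pair deviated together (-0.85 to 0.76 in muscle, -0.83 to 0.62 in adipose tissue). With the number as a replicate block the liver counts were 16 for diet, 11 for diet in BALB/cJ, 18 between strains and 16 between days. Named values that lost the threshold included F2 for diet (-0.03, adjusted p = 0.280) and C1s1 in BALB/cJ (-0.09, 0.193) under quantile normalization and Serpinc1 in C57Bl/6J (adjusted p = 0.121) in the fit of that strain alone.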

Other observations

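Adipose tissue had its own block of members that moved together. Around the group means of the 72 adipose libraries r was 0.98 between the C1 proteases C1ra and C1s1 and 0.97 between C1ra and C3, against a median of 0.39 over 703 pairs of members. The BALB/cJ HFD libraries 3HF201 and 3HF208, in which C1ra stood at 2.77 and 3.25, enter these values. In muscle the median over 703 pairs was 0.86.

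The spread between animals of a group differed widely by member. In liver the SD within groups was lowest for C1s1, F12 and Masp2 (0.09 each) and highest for Fga (0.45). In muscle it ran from 0.22 for Pros1 to 3.23 for Fgb, and in adipose tissue from 0.33 for C1qa to 2.67 for Fga.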
